A study of Homo sapiens with 4 samples.

Results

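A set of 10 NRF2 target antioxidant genes was followed on the expression arrays of HML58-3 cells, namely GCLM, GCLC, NQO1, HMOX1, TXNRD1, SRXN1, GPX2, ME1, AKR1C1 and AKR1B10. The members were taken by symbol, as every gene probe whose RefSeq accession maps to one of these 10 names, which gave 12 probes. They stand among 25006 genes and 34892 probes that could be named through RefSeq, of 58201 gene probes in all. HML58-3 is a derivative of the colon cancer line HCT116 in which a methylated promoter drives a luciferase reporter. The cells were given a mock treatment, DAC (decitabine), OR-2003 or OR-2100, and the OR compounds are prodrugs of DAC. All drugs were used at 1 µM from day 1, and RNA was collected on day 5. Each condition is 1 array, so that no difference below has a replicate check or a test, and the 3 drug comparisons share the mock array. All cells belong to 1 derivative line.

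NRF2, encoded by NFE2L2, is the transcription factor that answers oxidative and electrophilic stress. KEAP1 binds it in the cytoplasm and hands it to a CUL3 ubiquitin ligase. When KEAP1 is modified, NRF2 is spared, pairs with a small MAF protein and binds antioxidant response elements, while BACH1 occupies the same elements as a repressor. The genes under these elements make and recycle glutathione and thioredoxin, supply NADPH, and reduce quinones and carbonyls.

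The values are levels, that is log2 intensities scaled so that the 75th percentile over gene probes is 0 on every array. Unless drugs are named, 3 values in a row are in the order DAC, OR-2003, OR-2100, and 4 values begin with mock. Levels are compared for the same probe only, since probes differ in brightness. A gene was called reduced when it was at least 2-fold lower than on the mock array and had a level of -1 or more there, and induced when the drug array had a level of -1 or more and lay at least 2-fold above mock. Between 31601 and 33282 probes per array were well above background, no gene probe was saturated, and the arrays lay on 1 slide read in 1 scan run. The 5 epithelial markers EPCAM, CDH1, KRT8, KRT18 and KRT19 were well above background on all 4 arrays. UCHL1, a gene silenced by methylation in this line and used as a check of the treatment, was well above background with each drug and not on mock.

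Promoter windows show where the response elements could be looked for. RefSeq promoter windows (GRCh38.p14), which run from 250 bases before a gene start to 50 after, were matched for 8 of the 10 genes, with 2 windows for TXNRD1. HMOX1 and AKR1B10 were not matched. The core of the antioxidant response element, TGACNNNGC, was searched on both strands (GCNNNGTCA when read on the other strand), and 13.3% of all 35116 windows hold it. In all, 5 of the 9 windows, from 4 of the 8 genes, held at least 1 match. The windows of the 3 genes that were called reduced with a drug, and of GCLM as the partner subunit of GCLC, are printed 5′ to 3′ on the strand of the gene, with the core in capitals. They are GCLM at chr1:93909381-93909680 (minus strand), GCLC at chr6:53545052-53545351 (minus), NQO1 at chr16:69726511-69726810 (minus) and ME1 at chr6:83431002-83431301 (minus).
GCLM: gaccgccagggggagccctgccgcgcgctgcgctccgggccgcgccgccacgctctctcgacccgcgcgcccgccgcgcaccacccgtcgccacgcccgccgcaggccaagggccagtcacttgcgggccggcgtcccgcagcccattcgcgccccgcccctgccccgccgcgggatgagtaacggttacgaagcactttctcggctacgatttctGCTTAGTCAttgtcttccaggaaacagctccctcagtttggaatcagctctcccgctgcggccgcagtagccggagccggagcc
GCLC: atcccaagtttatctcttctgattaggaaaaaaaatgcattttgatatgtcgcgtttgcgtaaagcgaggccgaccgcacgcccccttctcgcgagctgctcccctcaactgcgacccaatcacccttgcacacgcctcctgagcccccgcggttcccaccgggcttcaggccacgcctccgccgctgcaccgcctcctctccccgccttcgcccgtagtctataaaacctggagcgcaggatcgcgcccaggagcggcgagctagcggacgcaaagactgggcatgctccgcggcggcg
NQO1: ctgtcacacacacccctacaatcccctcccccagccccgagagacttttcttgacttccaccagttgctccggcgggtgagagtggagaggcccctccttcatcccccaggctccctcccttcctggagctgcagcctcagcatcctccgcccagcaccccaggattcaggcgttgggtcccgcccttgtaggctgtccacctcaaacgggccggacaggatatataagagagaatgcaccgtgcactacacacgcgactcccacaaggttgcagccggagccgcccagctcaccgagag
ME1: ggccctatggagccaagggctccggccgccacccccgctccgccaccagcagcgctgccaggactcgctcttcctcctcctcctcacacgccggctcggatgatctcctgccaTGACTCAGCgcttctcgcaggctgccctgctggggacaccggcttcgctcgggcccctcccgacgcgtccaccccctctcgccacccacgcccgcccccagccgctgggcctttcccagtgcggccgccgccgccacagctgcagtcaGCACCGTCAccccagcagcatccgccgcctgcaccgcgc

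The GCLM window held 1 match, GCTTAGTCA, which began 34 bases before the start. The ME1 window held TGACTCAGC, 137 bases before the start, and GCACCGTCA just after it. No match lay in the windows of GCLC and NQO1, nor in those of SRXN1 and AKR1C1, and this says only that these letters are not in these 300 bases. The GPX2 window held GCTAAGTCA, and those of TXNRD1 held TGACTTCGC and GCTCCGTCA in the first and GCTTTGTCA in the other. CpG sites, at which DNA is methylated, were counted as well. They numbered 46 for SRXN1, 41 for GCLM, 32 for GCLC, 30 for ME1, 27 and 12 for the windows of TXNRD1, 14 for NQO1, 4 for GPX2 and 3 for AKR1C1, where the median window of all genes held 14. Of the genes called reduced, GCLC and ME1 lay above that median and NQO1 at it. Methylation itself was not analysed here.

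The members as a group were more often lower than higher with drug, and the size ran from a 4-fold reduction of NQO1 to almost no difference of GCLM and AKR1C1 with OR-2100. DAC and OR-2003 each reduced GCLC and NQO1, which is 2 of 10 members, and OR-2100 reduced these and ME1. Of all 25006 named genes, 5.96%, 6.05% and 6.82% were reduced. In all, 7 members had a level of -1 or more on the mock array and could be called reduced at all, and among all genes at that level the share was 12.3%, 12.5% and 14.1%. No member was induced, against 5.77%, 5.89% and 5.81% of all named genes, or 11.5%, 11.7% and 11.6% of those with a level of -1 or more on the drug array. In all, 9 members were well above background on all 4 arrays, and of these 7, 7 and 8 were lower and 2, 2 and 1 higher. Of the 15977 genes measured in the same way, 61.6%, 61.0% and 63.5% were lower and 38.4%, 39.0% and 36.5% higher. The median difference of the 9 members was -0.52, -0.44 and -0.44, beside -0.18, -0.17 and -0.21 for all genes of that kind. No set test was made over so few genes of single arrays.

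**Figure D1:**
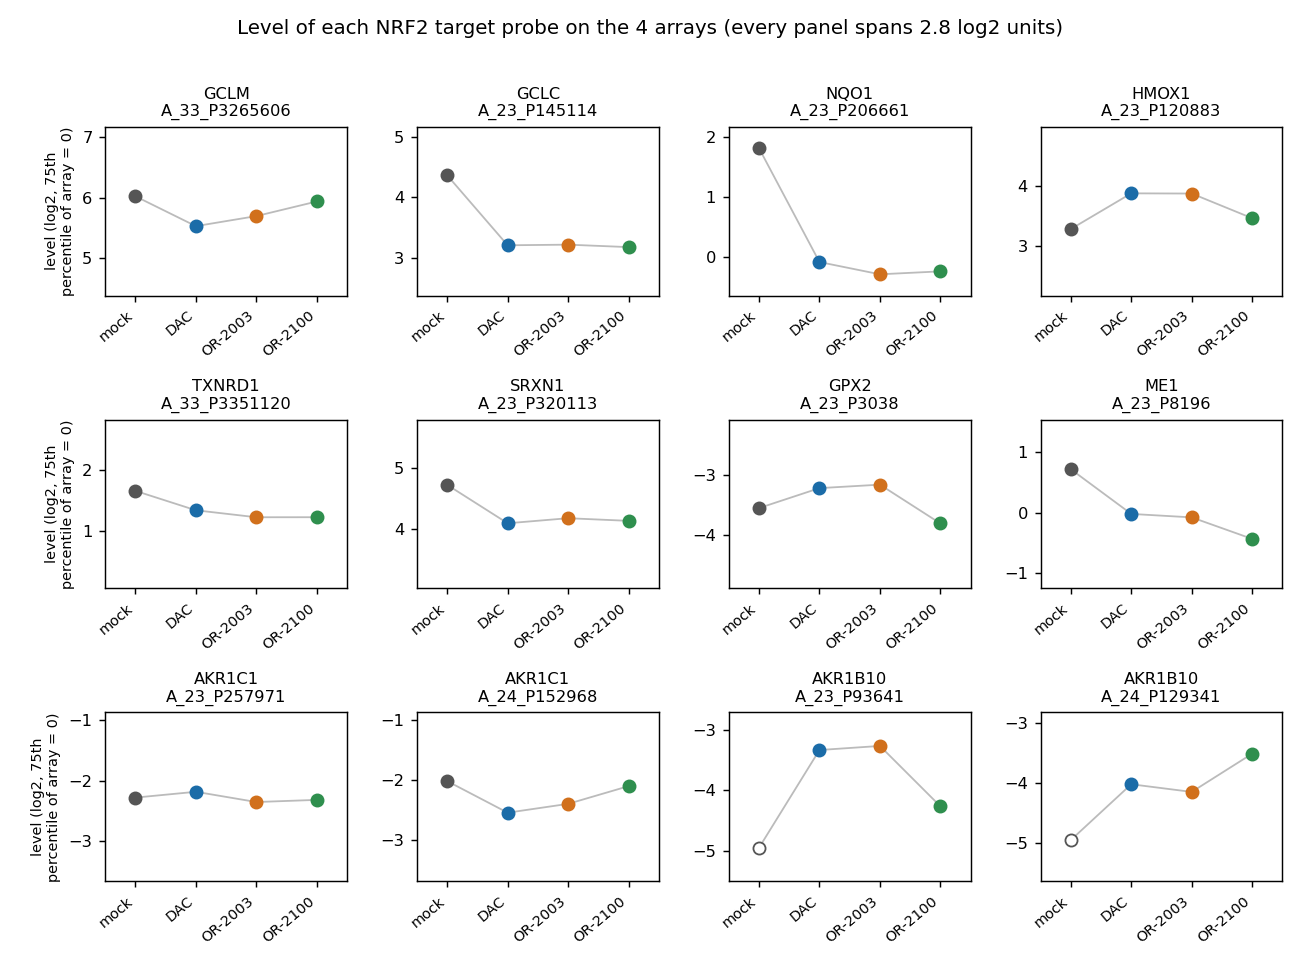
Level of each of the 12 probes of the NRF2 target genes on the 4 arrays (y axis, log2 with the 75th percentile of the array at 0; x axis, array), with open circles for values not well above background; grey lines only join the points of a probe. NQO1, GCLC and ME1 lie lower on every drug array than on the mock array, and HMOX1 lies higher.

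Glutathione synthesis begins with glutamate-cysteine ligase, whose catalytic subunit is GCLC and whose modifier subunit is GCLM. The GCLC probe had a level of 4.36 on the mock array and 3.20, 3.21 and 3.17 with the drugs. These are 2.24-fold, 2.22-fold and 2.28-fold reductions, so close to each other that the 3 drug arrays could not be ranked. Among the 15977 genes, 7.76%, 8.00% and 8.49% were as low or lower. The size is near the 2-fold threshold, and the call was lost with all 3 drugs after quantile normalization (-0.997, -0.98 and -0.97) and after scaling to bright probes only (-0.93, -0.85 and -0.94), and with OR-2100 also under spike-in scaling (-0.997), though GCLC stayed lower throughout. GCLM had a level of 6.02 on the mock array, 5.53 with DAC, 5.69 with OR-2003 and 5.93 with OR-2100. It was 1.41-fold lower with DAC and 1.26-fold lower with OR-2003. With OR-2100 the difference was -0.086, and it turned its sign under other scalings. The difference of GCLC was larger than that of GCLM with each drug, and this was not tested.

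NQO1, the quinone reductase that is the usual readout of NRF2 activity, was the member with the largest difference. Its level was 1.81 on the mock array and -0.08, -0.29 and -0.24 with the drugs. The reductions were 3.70-fold, 4.27-fold and 4.12-fold. Only 1.52%, 0.908% and 1.26% of the 15977 genes were as low or lower. It remained more than 2-fold lower with every drug under each of the 9 other ways of processing, between -2.32 and -1.56. Among these, a floor at the background limit, the mean of probes and the series table could not change the values of this 1 bright probe. Of 4230 other genes with a mock level within 1 of that of NQO1, those whose 3 differences lay closest to its own were ELF3, an epithelial transcription factor (-1.88, -2.04 and -2.06), FABP6, an ileal bile acid binding protein (-1.84, -2.05 and -2.13), and PGPEP1, a pyroglutamyl peptidase (-1.99, -2.04 and -2.00). The Euclidean distances over the 3 differences were 0.057, 0.11 and 0.12.

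HMOX1, which breaks down heme and answers BACH1 as well as NRF2, went the other way from NQO1. Its probe is spotted repeatedly, and 10, 8, 10 and 9 spots were used on the arrays. The level was 3.28 ± 0.076 on the mock array (SD over spots), 3.87 ± 0.064 with DAC, 3.87 ± 0.062 with OR-2003 and 3.46 ± 0.047 with OR-2100. HMOX1 was 1.51-fold higher with DAC, 1.5-fold higher with OR-2003 and 1.13-fold higher with OR-2100. The mock spots ran from 3.10 to 3.37 and did not overlap with the DAC spots (3.74 to 3.95) or the OR-2003 spots (3.75 to 3.94), whereas the lowest OR-2100 spot (3.36) fell below the highest mock spot. Spots of 1 array share 1 culture and 1 labelling, so that their spread covers the array only. Among the 15977 genes, 14.6%, 14.8% and 27.4% were as high as HMOX1 or higher.

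**Figure D2:**
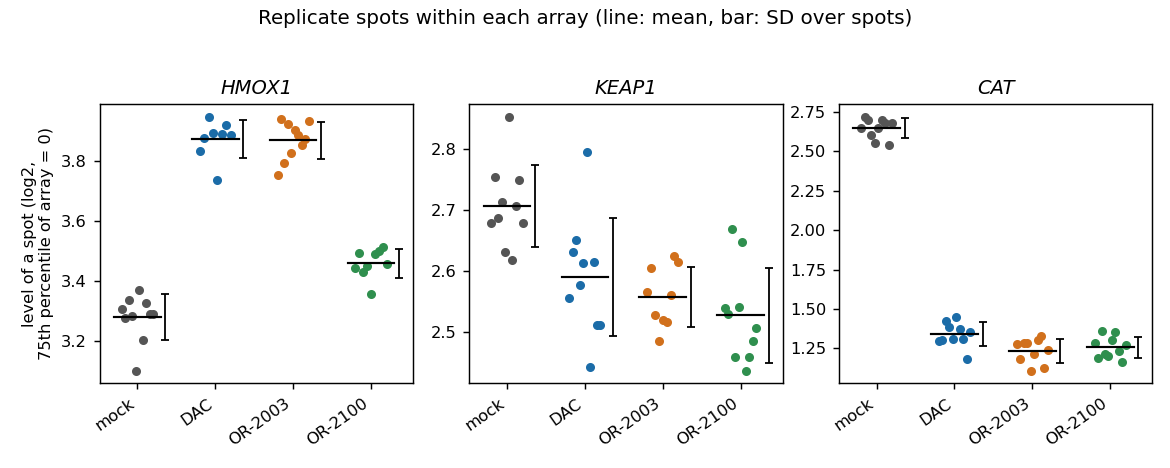
Levels of the single spots (y axis, log2 with the 75th percentile of the array at 0) of HMOX1, of the NRF2 inhibitor KEAP1 and of catalase (CAT) on the 4 arrays, with the mean as a line and the SD over spots as a bar. The spots of HMOX1 lie higher with DAC and OR-2003 than on the mock array, those of CAT lie lower with each drug, and those of KEAP1 overlap between arrays.

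Of the thioredoxin arm, TXNRD1 reduces thioredoxin and SRXN1 restores overoxidized peroxiredoxins. SRXN1 had a level of 4.73 on the mock array and 4.09, 4.17 and 4.13 with the drugs, which is 1.56-fold, 1.47-fold and 1.51-fold lower. The 3 drug arrays lay within 0.084 of each other, less than the 0.090 to 0.093 that is the SD of a difference between a pair of drug arrays by spot noise alone. The TXNRD1 probe, which represents 1 transcript variant, had 1.66 on the mock array and 1.34, 1.22 and 1.22 with the drugs. The differences were -0.32, -0.44 and -0.44. Neither gene was called, and both lay inside the range of the 12 housekeeping genes, which ran from -0.81 (RPLP0) to 0.21 with DAC, from -0.76 to 0.33 with OR-2003 and from -0.97 to 0.11 with OR-2100. With DAC only RPLP0 of these lay below SRXN1, and the median of the housekeeping genes was -0.16, -0.14 and -0.27.

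ME1, the cytosolic malic enzyme that supplies NADPH, was lower with each drug. It had a level of 0.72 on the mock array, -0.02 with DAC, -0.08 with OR-2003 and -0.43 with OR-2100. It was 1.67-fold, 1.74-fold and 2.23-fold lower. Only the last passed the 2-fold threshold, and with normexp background correction (-0.79), scaling to bright probes (-0.90) or spike-in scaling (-0.96) it no longer did. GPX2, the glutathione peroxidase of the gut epithelium, was faint. Its level was -3.55 on the mock array, -3.22 with DAC, -3.16 with OR-2003 and -3.81 with OR-2100, so that it was higher with 2 drugs and lower with OR-2100 by 0.26. The intensities behind these levels were 13.0, 18.9, 18.5 and 12.6, where the 75th percentile of an array lay at 152 to 176. Normexp turned the sign with DAC, and its offset of 50 by itself shrinks differences at such intensities.

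AKR1C1 and AKR1B10 reduce carbonyls, and AKR1B10 is often used as a marker of NRF2 activity in tumors. Each had 2 probes, and each belongs to a family of near-identical genes, so that it is uncertain whether a probe reads 1 gene only. The brighter AKR1C1 probe had levels of -2.02, -2.54, -2.39 and -2.10, with differences of -0.52, -0.38 and -0.083. The other AKR1C1 probe had -2.28, -2.19, -2.36 and -2.32, with differences of 0.10, -0.07 and -0.04. The 2 probes therefore did not agree on a reduction with DAC. On mock, neither AKR1B10 probe was well above background. The brighter one had levels of -3.33, -3.26 and -4.26 with the drugs, at least 1.94-fold, 2.03-fold and 1.02-fold higher than on the mock array. Here the drug level is set against the higher of the faintest signal well above background there (a level of -4.29) and the value of the probe itself. The other AKR1B10 probe had -4.02, -4.15 and -3.51, at least 1.2-fold, 1.10-fold and 1.71-fold higher, so that the probes gave the drugs in different orders. All these levels were under -1 and no call was possible. Under normexp, the differences of AKR1B10 shrank to 0.13, 0.18 and -0.020. The offset of 50 used there is above the intensities of its probes and by itself shrinks such differences.

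**Figure D3:**
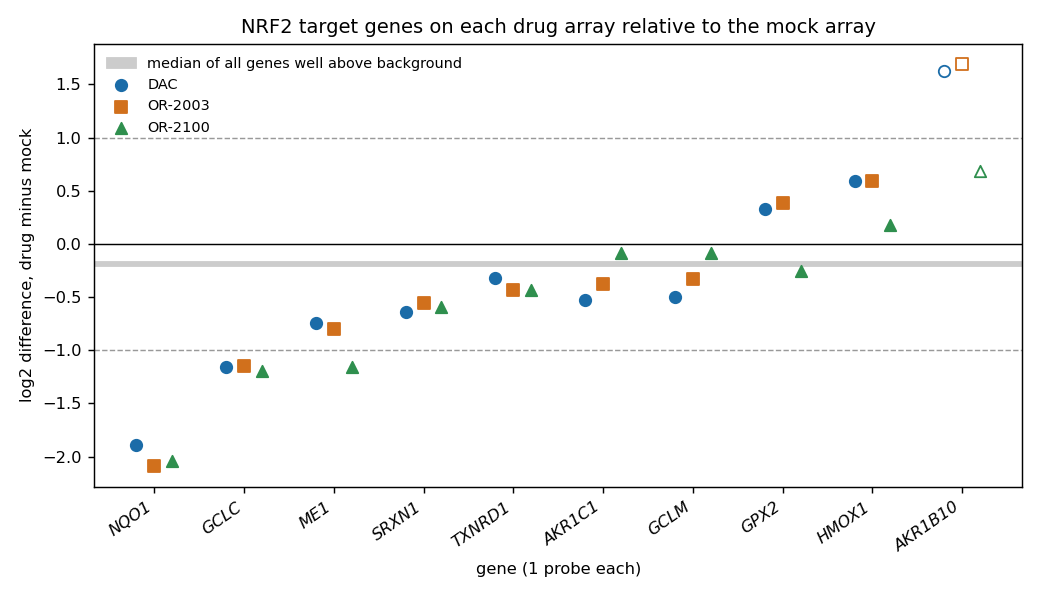
Log2 difference of each NRF2 target gene between a drug array and the mock array (y axis), with genes ordered by their mean difference (x axis), circles for DAC, squares for OR-2003, triangles for OR-2100, dashed lines at 2-fold and a grey band over the medians of all genes well above background. NQO1 and GCLC lie under the lower dashed line with all 3 drugs; the open symbols of AKR1B10 rest on a mock value not well above background.

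DAC, OR-2003 and OR-2100 were set against each other at the same dose and day, in 3 pairs of drugs over the 10 members. Over the 15977 genes, the median absolute difference was 0.077 between OR-2003 and DAC, 0.11 between OR-2100 and DAC and 0.11 between OR-2100 and OR-2003, and the 95th percentile was 0.34, 0.40 and 0.41. No member lay beyond that percentile between OR-2003 and DAC, where the largest difference was that of NQO1 (-0.20). In all, 6 members did so between OR-2100 and DAC. With OR-2100, HMOX1 (-0.41), GPX2 (-0.59), ME1 (-0.41) and AKR1B10 (-0.93) were lower than with DAC, and GCLM (0.41) and AKR1C1 (0.44) were higher. These values of AKR1B10 and AKR1C1 are from their brighter probes, and the other probe of each went the opposite way. Between OR-2100 and OR-2003, GPX2 (-0.64) and AKR1B10 (-1.0) lay beyond it. For GCLC, NQO1, TXNRD1 and SRXN1 the largest gap of any pair was 0.203, that of NQO1. Apart from AKR1B10, no member was 2-fold apart in any pair, beside 0.0563%, 0.113% and 0.269% of the 15977 genes. With 1 array per drug, a difference between drugs cannot be told apart from one between cultures or arrays, and no interval can be given.

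The regulators of NRF2 were next examined. The only NFE2L2 probe that was named through RefSeq, of a single transcript variant, was not well above background on any array, and no value of NRF2 RNA is given here. KEAP1 had levels of 2.71, 2.59, 2.56 and 2.53, over 10, 10, 9 and 10 spots, and the differences of -0.12, -0.15 and -0.18 were of the size of the median gene and turned their sign after quantile normalization and after scaling to bright probes. BACH1 had 2.15 on the mock array and 2.81, 2.70 and 2.56 with the drugs, and was 1.58-fold, 1.47-fold and 1.33-fold higher, while its other probe was near background. MAFF, a small MAF partner, was the only one of the 13 regulators to be called. This is 1 of the 11 with a level of -1 or more on all drug arrays. Of all such genes, 10.7% were induced with every drug. None of the 11 at that level on mock was reduced by the probe that stands for it, beside 10.8% of all such genes with every drug. For CUL3 that probe differed by -0.11, -0.073 and -0.11. Its fainter probe, well above background on mock only, was at least 4.93-fold, 4.81-fold and 4.69-fold lower. CUL3 was named after its values were seen. MAFF had 1.04 on the mock array and 2.52, 2.40 and 2.53 with the drugs, a 2.79-fold, 2.58-fold and 2.82-fold induction. MAFK, of the same family, was 1.53-fold, 1.60-fold and 1.58-fold higher. BTRC, an adaptor of another ubiquitin ligase that recognizes NRF2, was 1.62-fold, 1.48-fold and 1.66-fold lower. The median of the 12 regulators well above background was 0.19, 0.18 and 0.14, whereas that of all genes was below 0. Under median scaling the median over all 13 regulators, with the NFE2L2 probe among them, was below 0 with OR-2003 and OR-2100.

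Among other known NRF2 targets, SLC7A11 and ABCC2 had larger reductions than any of the members. Of 35 listed genes 33 were on the arrays, and 28 had a level of -1 or more on the mock array. With every drug, 8 were reduced, namely SLC7A11, ABCC2, ABCC3, CYP4F11, FECH, FTH1, IDH1 and PIR, and MGST1 joined them with OR-2100 (-1.04). Of all genes at that level, 10.8% were reduced with every drug. The list median over the 31 genes well above background was -0.33, -0.37 and -0.39. SLC7A11, the cystine importer that feeds glutathione synthesis upstream of GCLC, had a level of 5.74 on the mock array and 1.23, 1.18 and 1.26 with the drugs. This is a 22.7-fold, 23.5-fold and 22.3-fold reduction. ABCC2, which exports glutathione conjugates, had 3.25 on the mock array and 0.07, 0.17 and 0.26 with the drugs, and was 9.03-fold, 8.43-fold and 7.92-fold lower. ABCC3, a related exporter, was 3.27-fold, 3.64-fold and 2.81-fold lower, and its other probe was 2.25-fold, 2.31-fold and 2.28-fold lower. The ferritin heavy chain gene FTH1 was 2.51-fold, 2.40-fold and 2.68-fold lower by its brightest probe, although related copies of this gene make the assignment uncertain.

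CBR1 and NR0B1 of the same list were induced with every drug, and they were named after their values were seen. They are 2 of the 29 with a level of -1 or more on all drug arrays, beside 10.7% of all such genes. Of the 31 genes well above background on all arrays, 7, 8 and 6 were higher by any size and 24, 23 and 25 lower. The brighter probe of CBR1, a carbonyl reductase, had no signal well above background on mock and levels of 2.02, 2.16 and 2.23 with the drugs. These are at least 79.1-fold, 87.3-fold and 91.5-fold higher, while the other CBR1 probe was not well above background on any array. NR0B1, an orphan nuclear receptor, was also not well above background on mock and was at least 10.9-fold, 10.8-fold and 9.92-fold higher. Of the same list, TXN, GSR and AKR1C3 were not called by the probe that stands for each gene. TXN, the substrate of TXNRD1, had differences of -0.12, -0.12 and -0.35. GSR, which reduces oxidized glutathione, had -0.39, -0.54 and -0.55 by its brighter probe and -0.70, -0.82 and -1.03 by the other. AKR1C3, next to AKR1C1 in its family, had -0.039, 0.12 and -0.45. The sign of TXN and AKR1C3 turned with at least 1 drug under another scaling.

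**Figure D4:**
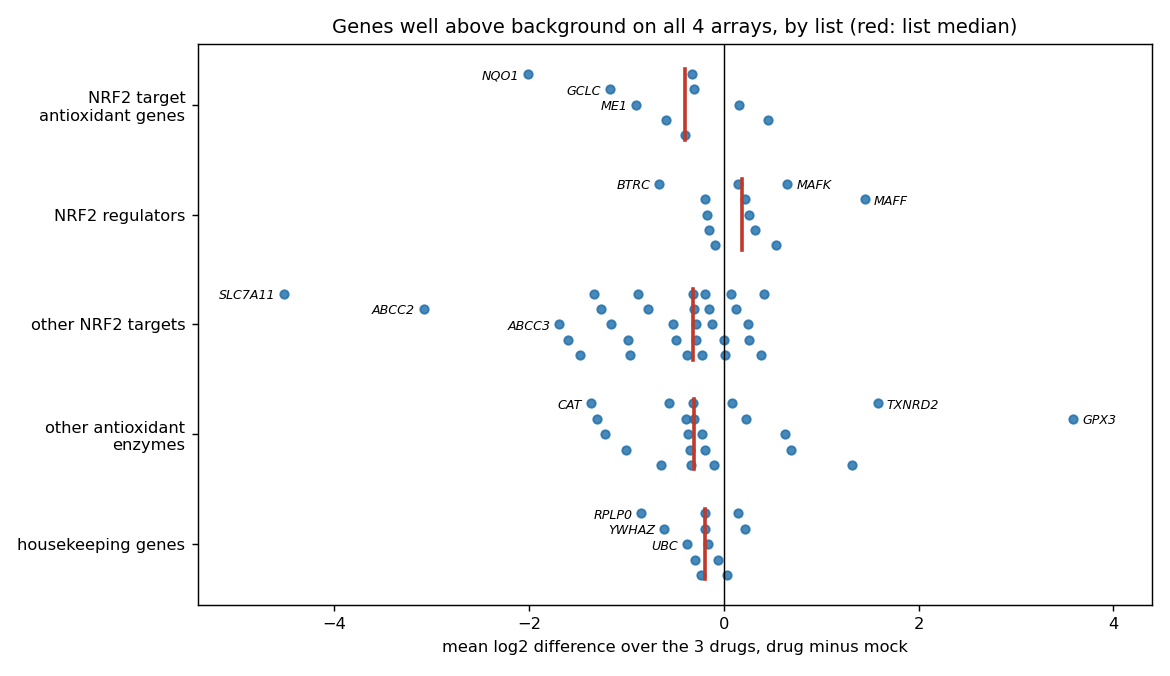
Mean log2 difference over the 3 drugs (x axis, drug minus mock) of the genes well above background on all 4 arrays, by gene list (y axis), with the 3 genes furthest from 0 named and list medians in red. SLC7A11 and ABCC2 lie further below 0 than NQO1, and of the lists drawn the regulators alone have a median above 0. Over all 13 regulators, of which 12 are drawn, median scaling takes the median below 0 with OR-2003 and OR-2100.

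Among 24 antioxidant enzymes that are not counted as typical NRF2 targets, 3 of the 20 at -1 or more on mock were reduced and 3 of the 22 that reached it with the drugs were induced with every drug, and MSRB2 was reduced as well with OR-2100 (-1.12). Of all such genes, 10.8% were reduced and 10.7% induced with every drug. The list median over the 22 genes well above background was -0.27, -0.28 and -0.38, beside -0.52, -0.44 and -0.44 for the members, and the median over all 24 came to lie just above 0 with DAC after quantile normalization and with DAC and OR-2003 after scaling to bright probes. Catalase (CAT), which decomposes hydrogen peroxide, was 2.47-fold, 2.66-fold and 2.62-fold lower, with spots of 2.54 to 2.72 on the mock array and none above 1.45 with a drug. GSS, which adds glycine in the step after GCLC and GCLM, was 2.18-fold, 2.34-fold and 2.47-fold lower, and GPX8 was lower too. GPX3, the secreted glutathione peroxidase, had levels of -3.57, 0.12, 0.14 and -0.20, and was 12.8-fold, 13.1-fold and 10.3-fold higher. MSRB1, a methionine sulfoxide reductase, was 2.49-fold, 2.50-fold and 2.47-fold higher. TXNRD2, the mitochondrial counterpart of TXNRD1, was 2.94-fold, 3.14-fold and 2.89-fold higher by its brighter probe and 1.24-fold, 1.09-fold and 1.33-fold lower by the other, so that its direction is uncertain.

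The members were also set beside their paralogs. Of 13 paralogs on the arrays, 7 had a level of -1 or more on mock and could be called reduced, and none was. Of all genes at that level, 12.3%, 12.5% and 14.1% were reduced, so that none among 7 says little. GPX3 and ME3 were induced with every drug, as was TXNRD2 by its brighter probe only. This makes 3 of the 10 that reached -1 on all drug arrays, beside 10.7% of all such genes. Some paralogs also stand in the earlier lists. GPX3 and TXNRD2 were already counted among the antioxidant enzymes, so that only ME3 is new here. ME3, the mitochondrial malic enzyme, had -3.28 on the mock array and -0.54, -0.52 and -0.15 with the drugs, and was 6.66-fold, 6.78-fold and 8.74-fold higher, where ME1 was lower. HMOX2, the constitutive heme oxygenase, was higher by 0.82 with each drug, as HMOX1 was by 0.59, 0.59 and 0.18. NQO2, a quinone reductase related to NQO1, had differences of -0.86, -0.83 and -0.99 and was not called. AKR1B15, the close relative of AKR1B10, was likewise not well above background on mock.

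Markers that could bear on the identity of the cells moved on the same arrays. EPCAM (-1.49, -1.52 and -1.46) and CDH1 (-1.09, -1.18 and -1.25), both epithelial, were reduced with every drug, while KRT8, KRT18 and KRT19 were higher by their brightest probes. Of the markers of other cell types, PECAM1 was not well above background on mock and at least 8.40-fold, 8.90-fold and 9.05-fold higher with the drugs, COL1A1 was higher by 0.83, 0.77 and 0.90, and PTPRC differed by -0.31, -0.27 and -0.16 by its brightest probe. The probes of PTPRC did not agree, and another, not well above background on mock, was at least 2.73-fold, 1.85-fold and 2.92-fold higher with the drugs. Their part in the reduction of NQO1 and GCLC was not tested. In RNA from a whole culture, fewer cells of a type and less RNA per cell cannot be told apart.

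Lastly, the members were recomputed under 9 other ways of processing the same arrays. NQO1, GCLC, ME1, SRXN1 and TXNRD1 stayed lower and HMOX1 stayed higher with each drug throughout. For these genes the floor at the background limit, the mean of probes and the series table could not change a value. GCLM and AKR1C1 with OR-2100, GPX2 with DAC and OR-2100, and AKR1B10 with OR-2100 changed sign under at least 1 of them.

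**Figure D5:**
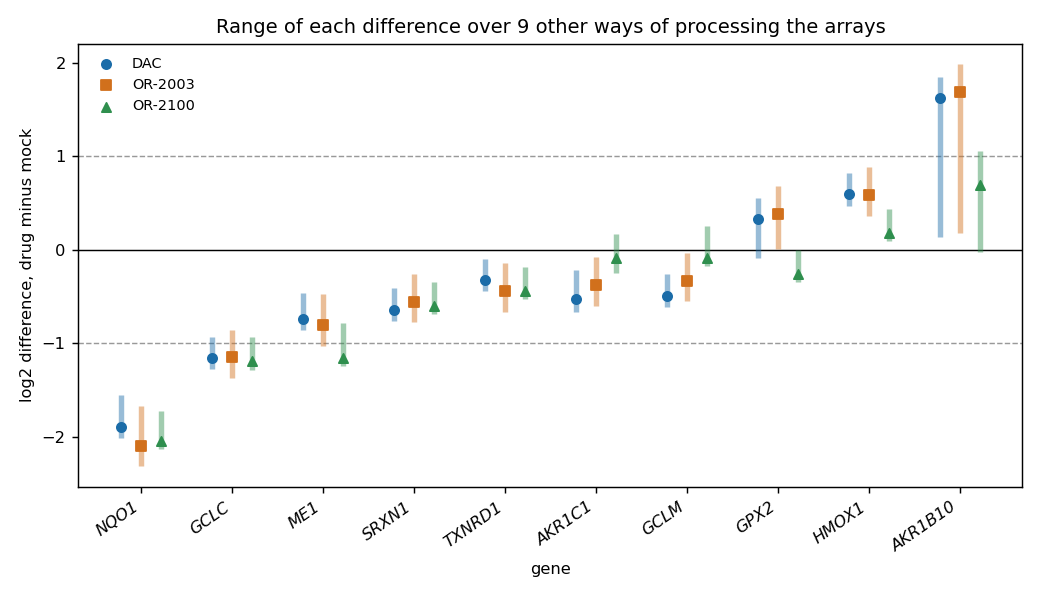
Lowest to highest log2 difference of each NRF2 target gene (y axis, drug minus mock; x axis, gene) over the chosen and 9 other ways of processing as a bar, with the value reported here as a symbol and dashed lines at 2-fold. The bars of NQO1 lie wholly under the lower dashed line, those of GCLC cross it, and those of AKR1B10 span more than 1 log2 unit.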

How the data were processed

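The expression of mock-treated and drug-treated HML58-3 cells was measured on 1-colour Agilent arrays (Cy3), 1 array for each of 4 conditions. The files that the authors deposited are scanner output, in which the intensity of a spot is the background-corrected signal of Feature Extraction 12.1.0.3 per the file headers, without normalization between arrays. The series table repeats these values. Control spots and spots marked as outliers were left out, spots of a probe were averaged, and log2 intensity was scaled to the 75th percentile of each array. A probe counted as well above background if over 0.5 of its spots did. Of 58201 gene probes, 34892 were named through a RefSeq table, and the array design follows another assembly, so that no gene coordinates are given beside those of the promoter windows. A gene is represented by its probe with the highest mean level over the 4 arrays. The precision of a value is limited by the number of arrays.

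Genes named are the 10 members with every probe, the 3 genes with the largest mean absolute difference in each other list among genes well above background on all arrays, NFE2L2, KEAP1, BACH1, SLC7A11, TXN, GSR and AKR1C3 whatever their values, the 3 genes most like the member with the largest difference, and UCHL1. AKR1C2, TRIM16L and CD68 were listed but have no probe named here. A further gene of the rule is not reported here. The members, lists and thresholds were chosen with earlier results of these data known. Genes named in other counts of 5 or fewer, and those of the lists of called genes, were named after their values were seen. Alternatives were quantile normalization, scaling to the 75th percentile of bright probes (those well above background), to the median or to 9 spike-in probes, normexp with an offset of 50 on the deposited median signal and local background, a floor at the background limit, marked spots kept, averaging all probes of a gene, the series table, a 1.5-fold threshold and no level threshold. The counting was tested on simulated data. Python 3.11.15, numpy 2.4.6, pandas 2.3.3, matplotlib 3.10.9, R 4.3.3 and limma 3.58.1 were used.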

Additional observations from a re-analysis of the deposited data

Results flagged for a closer look

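GPX2 had opposite directions with the prodrugs. It was higher than on the mock array by 0.39 with OR-2003 and lower by 0.26 with OR-2100 (-0.26), a gap of 0.64 between them. The difference was not tested, since each drug is 1 array. The probe was faint, with intensities of 18.5 and 12.6, and over all alternatives the value with OR-2100 came to between -0.34 and 0.00048. The gap shrank to 0.36 under spike-in scaling and to 0.20 with normexp. With normexp, GPX2 differed from mock by 0.0095 with OR-2003 and by -0.19 with OR-2100. Normexp adds an offset of 50, which is above the intensities of this probe. Such a difference therefore shrinks by construction.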

How the results depend on the processing

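No paired analysis was possible because there is only 1 array for each condition, and no array could be left out for that reason. NQO1 was called reduced with each drug under all alternatives. The floor, the kept marked spots and the series table moved none of the counts and medians of the members. The median over the 10 members, -0.51, -0.41 and -0.35 in the order used above, became -0.28, -0.11 and -0.091 with the 75th percentile of bright probes and -0.63, -0.63 and -0.43 with median scaling. It became -0.50 with OR-2003 and -0.15 with OR-2100 under spike-in scaling, and with DAC -0.37 after quantile normalization, -0.38 with normexp and -0.41 with the mean of probes. The number of members reduced became 1 with DAC and OR-2003 and 2 with OR-2100 after quantile normalization, and 1 with each drug with bright probes. It became 1 with OR-2100 under spike-in scaling, 2 with OR-2100 with normexp and 3 with OR-2003 under median scaling. At 1.5-fold it became 4 with DAC (with ME1 and SRXN1), 3 with OR-2003 and 4 with OR-2100. The number induced, 0 with each drug, became 1 with DAC and 1 with OR-2003 under median scaling (AKR1B10), at 1.5-fold (HMOX1) and without the level threshold (AKR1B10). The level threshold stayed at -1 when the scaling changed. With bright probes or median scaling, 0 stands at another intensity, so that -1 does too and the counts depend on this. Other causes of these shifts were not tested.

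Of the 270 member differences under 9 alternatives, 142 moved by less than the spot noise, 128 by more, and 8 turned their sign, none of them a called one. The 142 include those under the series table, which repeats the same values, and those with marked spots kept. They also include most of those under the floor and the mean of probes, as most members have 1 probe. Under the changes of scaling, most differences moved by more than the spot noise. Scaling moves all genes together, while the level threshold stays at -1. With bright probes the median of all named genes went from -0.12, -0.093 and -0.23 to 0.11, 0.20 and 0.026, and of the genes called, 63.1%, 68.9% and 61.8% were induced in place of 49.2%, 49.3% and 46.0%. With spike-in scaling, 53.5% were induced with DAC, 41.9% with OR-2003 and 61.2% with OR-2100. At 1.5-fold, 2208, 2236 and 2208 genes were induced and 3364, 3426 and 3696 reduced, and without the level threshold 3530, 3700 and 3373 induced and 2950, 2706 and 3842 reduced, more than reported by construction. With bright probes they were 1009, 1148 and 1037 induced and 589, 517 and 642 reduced, and with median scaling 2899, 2797 and 2942 induced and 3092, 3524 and 3557 reduced, where the reported settings gave 1444, 1473 and 1452 induced and 1491, 1514 and 1706 reduced. With normexp 898, 958 and 1101 were reduced. Brightness over background limits GPX2, AKR1C1 and AKR1B10, which stayed under -1 on all arrays under the reported scaling.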
